A study of Mus musculus with 12 samples.

Results

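Flt3, Napsa, Dcstamp, Jaml, Mcemp1, Plet1, Ddr1, Klrd1 and Tmem123 are 9 genes of 54532 in the count table of tumour-associated macrophages (TAMs) from mouse gliomas. They were chosen by name because earlier results of the same libraries showed lower counts in TAMs that carried nanoparticles, so their difference between sorts is given here as a description with no test. Tumour-bearing mice labelled Ntv-a_Ink4a/Arf_KO, 4 male and 2 female and of an age not given in the sources used here, all received rhodamine-labelled perfluoro-crown-ether nanoparticles into a vein. After 24 hours, cells of each tumour positive for CD45 and CD11b and negative for Ly6C, a marker the stated gate lists 2 times, were sorted into a rhodamine-negative and a rhodamine-positive fraction of more than 2000 cells, and their polyadenylated RNA was sequenced. The 12 libraries, 6 per sort and 2 per mouse, held 13073189 to 17379314 counts. Both groups therefore carry the same genotype, tumour and injection and differ in whether the sorted cells had rhodamine signal. How the gliomas were induced is not given in the sources used here, and all libraries carry the same batch label.

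Conventional dendritic cells are myeloid cells that capture antigen, travel to lymph nodes and show peptides on MHC class II to T cells. They develop from precursors that depend on the cytokine FLT3 ligand and its receptor FLT3, and in inflamed tissue monocytes can take on a related state. Some dendritic cells share CD11b with macrophages and can fall into a sort gated on it. Of the 9 genes, Flt3 encodes that receptor, and Napsa (napsin A, an aspartic protease) and Plet1 (a surface protein tied to the plasma membrane by a lipid anchor) are transcribed in dendritic cells as well as in epithelia. Dcstamp encodes a transmembrane protein of dendritic cells and osteoclasts that is required for cell fusion. Jaml encodes an adhesion receptor of leukocytes that binds the epithelial protein CXADR. Ddr1 encodes a receptor tyrosine kinase for collagen, Klrd1 encodes CD94, a lectin that pairs with NKG2 chains on natural killer (NK) cells, Mcemp1 a membrane protein of myeloid and mast cells, and Tmem123 a mucin-like surface protein.

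The 9 genes lie apart from each other in the genome. In mm10, Flt3 is at chr5:147330741-147400489, Napsa at chr7:44572380-44586862, Dcstamp at chr15:39745930-39760938, Klrd1 at chr6:129591782-129598775, Mcemp1 at chr8:3665754-3669259 and Ddr1 at chr17:35681567-35704621. Jaml, Plet1 and Tmem123 are all on chromosome 9, at chr9:45079183-45108534, chr9:50494525-50505482 and chr9:7764041-7794333. All 9 are protein-coding in GENCODE vM21. The RefSeq promoter table (GRCm38.p6) held entries for 6 of them, Flt3, Jaml, Mcemp1, Plet1, Ddr1 and Tmem123. The first 4 of these are shown as the 250 bases before the annotated start, in the direction of the gene. They are set beside each other because their rhodamine-negative levels per kilobase of exon were alike. Capitals mark matches on either strand to TGANTCA (an AP-1-like pattern), TGTGGT (the RUNX core) and TATAAA (the TATA box). In TGANTCA, N is any base, so the pattern is broader than the AP-1 site, which has C or G there.

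Plet1, chr9:50494275-50494524, plus strand: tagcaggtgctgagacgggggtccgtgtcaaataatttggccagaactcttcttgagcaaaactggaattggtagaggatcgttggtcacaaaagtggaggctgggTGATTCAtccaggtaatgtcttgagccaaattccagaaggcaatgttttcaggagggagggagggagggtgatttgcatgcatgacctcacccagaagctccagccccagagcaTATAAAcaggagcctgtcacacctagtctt
Jaml, chr9:45078933-45079182, plus strand: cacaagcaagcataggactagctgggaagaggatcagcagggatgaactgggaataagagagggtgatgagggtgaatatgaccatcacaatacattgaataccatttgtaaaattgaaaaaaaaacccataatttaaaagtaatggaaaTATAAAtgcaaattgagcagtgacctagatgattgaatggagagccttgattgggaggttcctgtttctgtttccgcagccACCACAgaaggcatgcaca
Mcemp1, chr8:3665512-3665761, plus strand: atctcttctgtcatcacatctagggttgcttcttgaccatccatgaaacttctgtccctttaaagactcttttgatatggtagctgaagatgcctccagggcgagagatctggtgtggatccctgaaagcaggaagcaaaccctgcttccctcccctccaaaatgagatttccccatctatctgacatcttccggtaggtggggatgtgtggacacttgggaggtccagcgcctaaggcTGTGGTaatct
Flt3, chr5:147400490-147400739, minus strand: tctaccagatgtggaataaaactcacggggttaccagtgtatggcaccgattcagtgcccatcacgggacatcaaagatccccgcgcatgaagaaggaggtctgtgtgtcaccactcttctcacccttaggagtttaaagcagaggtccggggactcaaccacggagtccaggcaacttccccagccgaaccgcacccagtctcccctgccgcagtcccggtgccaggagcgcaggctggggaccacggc

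No motif searched was found in all 4 windows. TATAAA ends 25 bases before the start of Plet1 and 95 bases before that of Jaml. TGANTCA was found in Plet1, as TGATTCA, and in a single alternative promoter of Ddr1, as TGAGTCA. Over the 10 promoter entries of the 6 genes, TGANTCA was in 2, TGTGGT in 2 and TATAAA in 2, against 6.75%, 14% and 12.4% of all 32851 entries. The ETS-IRF composite motif and the PU.1-type core GAGGAA, carried by 2.3% and 23.3% of all entries, matched none of the 10, which says only that these letters are not in these windows.

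In nanoparticle carriers, 8 of the 9 genes stood at 9.94% to 22.2% of their rhodamine-negative level in the median mouse, and Tmem123 at 73.4%. Levels are given as CPM, the counts of a gene relative to the effective size of its library after TMM normalization. The log2 difference is rhodamine-positive minus rhodamine-negative with the mouse as a block, with its standard error (SE). All 9 genes passed the filter on low counts and were lower in the rhodamine-positive sort of all 6 mice, as were 14% of the 15014 genes tested. For 8 of them, every rhodamine-positive library lay below every rhodamine-negative library, which held for 4.67% of genes tested. The same 8 were at least 4-fold lower on average, and 1.86% of genes tested were lower by that much and passed the test. The choice of the genes rests on this contrast, so nothing is read from these counts. In bulk libraries, fewer cells of a type and less RNA per cell cannot be told apart.

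**Figure D1:**
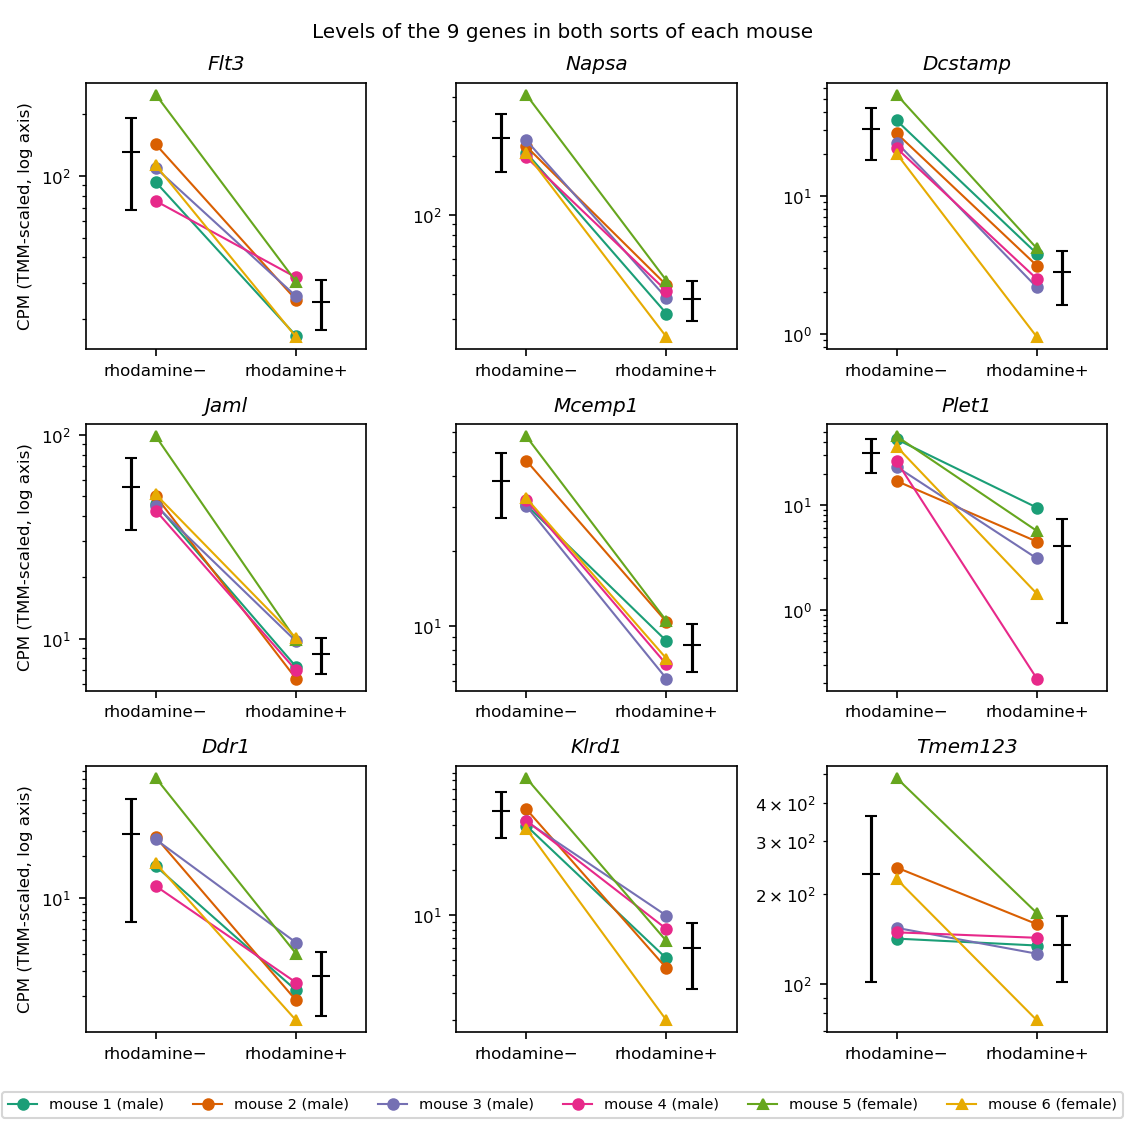
CPM of each gene (log axis) in the rhodamine-negative and rhodamine-positive sort of each mouse, with a line per mouse, circles for male and triangles for female mice, and black bars for mean ± SD (n = 6). The lines of 8 genes drop without overlap between sorts, those of Tmem123 overlap, and the rhodamine-negative library of mouse 5 is the highest for all 9 genes.

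Flt3, the growth factor receptor, stood at 93.2, 142, 109, 75.4, 249 and 113 CPM in the rhodamine-negative sorts of mice 1 to 6 and at 16.6, 24.8, 25.9, 31.9, 30.5 and 16.4 CPM in the rhodamine-positive sorts. The mean went from 130.3 ± 62.4 to 24.3 ± 6.67 CPM (SD, n = 6), a log2 difference of -2.36 (SE 0.19). Mouse 5 had the highest and mouse 4 the lowest rhodamine-negative level. Mouse 4 also kept the largest share of Flt3 in carriers, 42.4% of its rhodamine-negative level, against 12.2% to 23.7% in the other mice.

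Napsa, the protease gene, was at 208, 224, 240.5, 198, 409.5 and 206 CPM in rhodamine-negative sorts and at 31.8, 44.4, 38.1, 41.4, 46.8 and 24.2 CPM in rhodamine-positive sorts. Apart from mouse 5, its rhodamine-negative level was even between mice. The log2 difference was -2.69 (SE 0.13), with 11.4% to 21.0% of the level kept. An antisense gene, Gm15396, shares 502 exonic bases with Napsa. It held 5786 counts over the rhodamine-negative and 727 over the rhodamine-positive libraries, and without a stated strand setting its reads cannot be told from those of Napsa.

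Dcstamp, the cell fusion gene, had the lowest log2 difference of the 9, at -3.46 (SE 0.17). Its rhodamine-negative levels were 34.95, 28.2, 24.2, 22.1, 53.8 and 20.1 CPM, and its rhodamine-positive levels were 3.81, 3.12, 2.174, 2.50, 4.16 and 0.952 CPM. Between 4.74% and 11.4% remained in carriers, and mouse 6 was the lowest with 12 counts.

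Plet1 varied most between mice in carriers. It stood at 42.6, 17.0, 23.3, 26.2, 45.5 and 36.3 CPM in rhodamine-negative and at 9.49, 4.49, 3.11, 0.221, 5.68 and 1.43 CPM in rhodamine-positive sorts. The log2 difference was -3.16 (SE 0.41). The lowest carrier library, that of mouse 4, had 3 counts, or 0.844% of the level in the other sort of that mouse, while mouse 2 kept 26.4%. The antisense gene Plet1os shares 261 exonic bases with Plet1 and held 1757 and 288 counts over the libraries of the 2 sorts.

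Jaml, the adhesion receptor gene, was at 45.7, 49.9, 44.9, 42.5, 98.3 and 50.9 CPM in rhodamine-negative and at 7.28, 6.36, 9.70, 6.99, 9.84 and 10.1 CPM in rhodamine-positive sorts. Its log2 difference was -2.68 (SE 0.15) and its rhodamine-negative level was nearly the same in all mice but mouse 5. It shares 397 exonic bases with Gm10684, a gene on the opposite strand with 1041 and 164 counts. Mcemp1 showed the most even change, with log2 differences between sorts of -2.45 to -1.80 in the 6 mice. It went from 38.2 ± 11.2 to 8.34 ± 1.81 CPM (SD, n = 6), at 30.6, 46.0, 30.3, 31.9, 57.6 and 32.6 CPM in rhodamine-negative and 8.69, 10.4, 6.13, 6.99, 10.5 and 7.38 CPM in rhodamine-positive sorts.

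Ddr1, the collagen receptor gene, had 16.8, 27.0, 26.0, 12.2, 71.3 and 17.6 CPM in rhodamine-negative and 2.21, 1.87, 4.81, 2.50, 4.02 and 1.35 CPM in rhodamine-positive sorts. Its rhodamine-negative level spanned 5.87-fold between mice, the widest of the 9 genes. The log2 difference was -3.22 (SE 0.25). Klrd1 was at 39.8, 51.3, 42.5, 43.0, 82.8 and 37.9 CPM in rhodamine-negative and at 5.14, 4.43, 9.94, 8.10, 6.72 and 1.98 CPM in rhodamine-positive sorts, a log2 difference of -3.09 (SE 0.24).

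Tmem123 was set apart from the other genes by its level in carriers. It stood at 142, 244.5, 154, 149, 486 and 224 CPM in rhodamine-negative and at 134, 158, 126, 143, 172 and 75.7 CPM in rhodamine-positive sorts, and the ranges of the sorts overlapped. The log2 difference was -0.68 (SE 0.20), or 1.60-fold. Carriers of mice 1 and 4 kept 94.9% and 95.9% of the rhodamine-negative level, those of mice 5 and 6 kept 35.5% and 33.8%. The description of these genes as lost in nanoparticle carriers did not hold for Tmem123 in the 4 male mice, where it was 64.8% to 95.9% of the rhodamine-negative level.

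**Figure D2:**
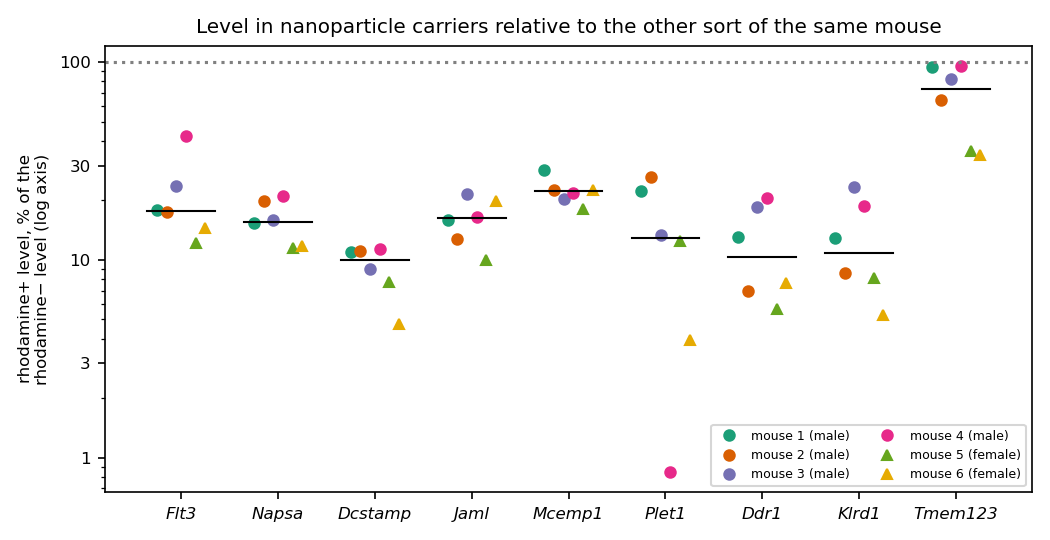
Rhodamine-positive CPM as a percentage of the rhodamine-negative CPM of the same mouse (log axis) for each gene, with a point per mouse and a line at the median. Tmem123 has a median of 73.4% and the other genes have medians of 9.94% to 22.2%, with Plet1 of mouse 4 the lowest point at 0.844%.

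Per kilobase of exon, the order of the genes differed between sorts. In rhodamine-negative sorts Napsa was highest at 93.1 ± 30.4 CPM per kilobase (SD, n = 6), followed by Tmem123 at 75.0 ± 42.2, which does not stand apart from it beyond their spread, and Klrd1 at 38.7 ± 13.2. Mcemp1, Flt3, Jaml, Plet1 and Dcstamp followed at 25.6 ± 7.50, 21.1 ± 10.1, 17.8 ± 6.84, 16.3 ± 5.85 and 11.5 ± 4.70, each within the spread of its neighbour, and Ddr1 was lowest at 5.97 ± 4.55. In rhodamine-positive sorts Tmem123 led at 43.4 ± 10.8 CPM per kilobase, ahead of Napsa at 14.2 ± 3.18, and Ddr1 was again lowest at 0.585 ± 0.280. The authors' deposited table of log2 normalized values, which lists all 9 genes, gave mean differences between sorts from -3.58 for Plet1 to -0.72 for Tmem123.

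The rhodamine-negative library of mouse 5 stood apart. It was the highest of the 6 for all 9 genes, and for 26% of all genes tested. The 9 genes together held 23799 counts in it, 0.177% of the library, against 0.0619% to 0.0862% in the other rhodamine-negative libraries and 0.0134% to 0.0284% in carriers. Without mouse 5 the log2 differences of the 9 genes kept their sign, with a median of -2.595 in place of -2.69. What sets this library apart was not tested.

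Genes of dendritic cells outside the 9 were lower in carriers as well. Across 5 lists of dendritic cell genes, 45 of the 61 genes tested fell in rhodamine-positive sorts and 1, Sirpa, rose (edgeR quasi-likelihood test, Benjamini-Hochberg adjusted p under 0.05), while 13.2% of all genes tested fell and 13% rose. The median log2 difference of the 61 genes was -1.50, beside -0.02 over all genes. Scaling by library size alone moved the median of all genes to -0.18 and the calls to 3142 lower and 852 higher, from 1986 and 1955. The lists were put together with earlier results of these libraries known, so they are not independent evidence of a direction.

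Of the core dendritic list, 18 of 19 genes tested fell. Kmo, an enzyme of tryptophan breakdown, fell by 2.86 on the log2 scale (SE 0.18, adjusted p = 1.94e-06), from 102.9 to 13.1 CPM. Btla, an inhibitory receptor, fell by 2.53 (SE 0.21, adjusted p = 9.52e-06). Zbtb46, the transcription factor that marks conventional dendritic cells and was picked after its values were seen, fell by 2.23 (SE 0.31, adjusted p = 0.000464). The summed level of the tested genes of this list was 780.4 to 2733 CPM in rhodamine-negative and 413 to 512 CPM in rhodamine-positive libraries. All sums of lists given below also leave out untested genes.

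The subset lists moved to different extents. Of genes of type 2 and monocyte-derived dendritic cells, 10 of 12 fell, led by the lectin gene Clec10a, which fell by 3.50 (SE 0.12, adjusted p = 3.77e-08), and Cd209a, which fell by 3.40 (SE 0.18, adjusted p = 8.82e-07). Of genes of type 1 dendritic cells, 7 of 10 fell, among them the integrin gene Itgae at -2.52 (SE 0.18, adjusted p = 4.15e-06). The rest of that list, Cadm1, Tlr3 and Irf8, picked after their values were seen, had log2 differences of 0.44, 0.275 and 0.038. They did not pass by edgeR, while DESeq2 called 1 gene of the list higher. Of mature dendritic cell genes, 8 of 12 fell, such as the costimulatory gene Cd40 at -1.18 (SE 0.13, adjusted p = 0.000102). Of plasmacytoid dendritic cell genes, 2 of 8 fell, Spib and Ccr9. In the same list Cox6a2 had a log2 difference of 0.54 that did not pass (adjusted p = 0.069 by edgeR). DESeq2 called 3 genes of it lower and 1 higher. Whether the lists differ from each other was not tested.

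**Figure D3:**
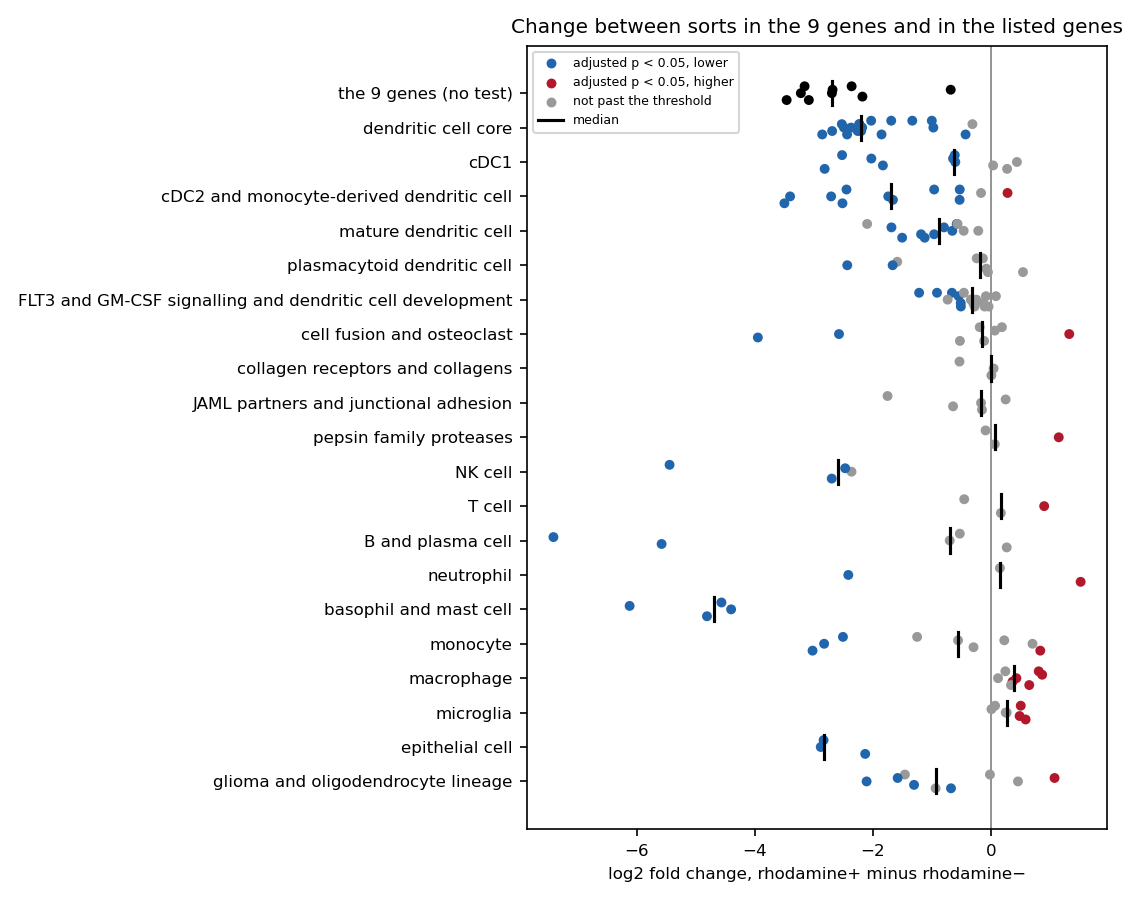
Log2 difference between rhodamine-positive and rhodamine-negative sorts (horizontal axis) for the 9 genes and for the tested genes of 20 lists, coloured by call, with a black bar at each median. The core dendritic list has its median at -2.20 and the macrophage list at 0.40.

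Genes of the pathways in which the 9 take part were read from the same fit. Of 18 genes of FLT3 and GM-CSF signalling and dendritic cell development, 6 fell, among them the kinase gene Jak2 at -1.22 (SE 0.22, adjusted p = 0.00215), and the signal transducer Stat5a at -0.91 (SE 0.15, adjusted p = 0.00103). With library size alone as the scale, 14 of them fell. Flt3l, which encodes the ligand of FLT3 and was picked after its values were seen, had a log2 difference of -0.46 (SE 0.26, adjusted p = 0.214) at 3.21 CPM in rhodamine-negative sorts.

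Of 8 tested genes of cell fusion and osteoclasts, Ocstamp, a partner of Dcstamp in fusion, fell by 2.57 (SE 0.19, adjusted p = 4.15e-06), from 22.1 to 3.83 CPM. Mmp9 also fell, at -3.95 (SE 1.03, adjusted p = 0.0156), and Atp6v0d2 rose by 1.33 (SE 0.41, adjusted p = 0.0313). The call of Mmp9 was lost without mouse 3, without mouse 6 and in male mice alone, and that of Atp6v0d2 without the mouse block, with library size alone and without mouse 1, 3 or 5. By edgeR, 0 of 5 genes of JAML partners and junctional adhesion passed, with 1 at an unadjusted p under 0.05, and 1 fell by DESeq2, with library size alone and without the filter. Cxadr, picked after its values were seen, had a log2 difference of -1.75 (SE 0.76, adjusted p = 0.111 by edgeR) and was lower in all 6 pairs. Of 3 tested genes of collagen receptors and collagens 0 passed by edgeR or DESeq2 and 0 had an unadjusted p under 0.05, while 2 of the list fell without the filter and 1 without mouse 1 or mouse 4. Of the proteases related to napsin A, Ctsd (cathepsin D) rose by 1.15 (SE 0.14, adjusted p = 0.000163), and the other 2 tested did not pass.

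Klrd1 is best known from NK cells, whose other genes ranged from near 0 to above Klrd1 in counts. Over the 6 rhodamine-negative libraries Klrd1 held 4616 counts, Klrk1 8906 and Gzmb 853. The other 12 genes of the list held 4 (Klra8) to 122 (Klre1), among them Ncr1 with 16, Eomes with 5, Klrc1 with 48, Klrb1c with 85 and Prf1 with 76. In rhodamine-positive libraries the last 5 held 0, 1, 4, 38 and 13 counts, Klrk1 1355, Gzmb 27 and Klrd1 508. Of 14 NK cell genes 4 passed the filter and 3 of them fell. Klrk1 had a log2 difference of -2.47 (SE 0.16, adjusted p = 1.94e-06), Gzmb of -5.45 (SE 0.69, adjusted p = 0.000252) and Klre1 of -2.70 (SE 0.68, adjusted p = 0.0136), the last call lost in male mice alone. The 4 tested genes summed to 62.4 to 221.5 CPM in rhodamine-negative and 9.73 to 24.5 CPM in rhodamine-positive libraries. Most of this was Klrk1, at 95.3 CPM on average in rhodamine-negative sorts.

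Napsa, Plet1 and Ddr1 are also transcribed in epithelia. The 3 tested genes of 9 in the epithelial list all fell. The adhesion genes Cdh1 and Epcam had log2 differences of -2.84 (SE 0.22, adjusted p = 7.54e-06) and -2.88 (SE 0.23, adjusted p = 9.06e-06). Muc1 fell by 2.13 (SE 0.57, adjusted p = 0.0174), a call that was lost without mouse 5 and in male mice alone. The 3 tested genes summed to 88.2 to 542 CPM in rhodamine-negative and 14.9 to 45.2 CPM in rhodamine-positive libraries. The keratin genes Krt8, Krt18 and Krt19 held 7, 42 and 7 counts over all rhodamine-negative libraries, and Cldn4 and Elf3 held 0. Cdh1 and Epcam are also transcribed in some dendritic cells.

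Markers of other cells moved in either direction. All 4 tested of 8 basophil and mast cell genes fell. The 4 summed to 6.17 to 426 CPM in rhodamine-negative and 0.134 to 20.9 CPM in rhodamine-positive libraries. The monocyte genes Plac8 and Ccr2 fell, with log2 differences of -2.83 (SE 0.20, adjusted p = 3.87e-06) and -2.51 (SE 0.19, adjusted p = 5.44e-06), and F13a1 rose, while Ly6c2, Chil3, Vcan, Fn1 and Hp did not pass. Of 8 macrophage genes 5 rose and none fell, with sums of 5033 to 9749 and 11100 to 12690 CPM. Of 7 microglia genes 3 rose and none fell, with sums of 3946 to 12180 and 8709 to 14330 CPM. Of 7 B and plasma cell genes 2 of 5 tested fell, with sums of 29.2 to 78.1 and 21.8 to 40.8 CPM, and of 10 glioma and oligodendrocyte genes 4 of 9 tested fell and 1 rose, with sums of 230 to 277 and 198 to 243 CPM. Of 3 tested T cell genes Cd4 rose, a call lost without mouse 3, without the mouse block and in male mice alone. The 3 tested T cell genes summed to 5.88 to 11.6 and 8.33 to 18.7 CPM. Of 3 tested neutrophil genes Cxcr2 fell and Mmp8 rose, the latter call lost with library size alone and without mouse 1, 2, 3, 4 or 5. The 3 tested neutrophil genes summed to 214 to 390 and 249 to 417 CPM. The part of these cells in the levels of the 9 genes was not tested.

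Among the rhodamine-negative libraries, which the choice of genes did not compare with each other, the levels of the 9 genes were correlated across mice. The same correlations were not computed for pairs of other genes, so no share over all genes stands beside the counts below. Whether other genes are correlated as often is therefore not known from them. The rhodamine-negative library of mouse 5 was the highest for 26% of all genes tested. All 36 pairs of genes had a positive Pearson correlation of log2 CPM across the 6 mice, from 0.079 to 0.970 with a median of 0.862, and the median Spearman rho was 0.571. By an exact two-sided permutation test, whose smallest p is 0.00278, 17 pairs had p under 0.05 by Pearson and 5 by Spearman, and none passed adjustment over the 36 pairs (lowest adjusted p = 0.05 and 0.24). Without the 2 mice farthest from the median of the gene listed first in each pair, 25 pairs stayed positive with a median of 0.378. Which mice are left out in that setting depends on the order of the genes. Without mouse 5, a setting added after seeing the data, 27 pairs stayed positive with a median of 0.230. The relation thus rests largely on mouse 5. Plet1 was least tied to the others, with a median r of 0.269 against 0.776 to 0.913, and of -0.509 without mouse 5.

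Levels were then compared between the 4 male and 2 female mice in the rhodamine-negative sorts. No gene of the 9 passed (edgeR, 0.11% of genes tested passed), and 4 had an unadjusted p under 0.05, as did 12.5% of genes tested. Of the 9, DESeq2 called Tmem123 alone (adjusted p = 0.0349), and edgeR without the filter called 4, Flt3, Jaml, Ddr1 and Tmem123 (adjusted p = 0.0127, 0.0361, 6.35e-05 and 0.000174). Over all genes, DESeq2 called 369 and edgeR without the filter 882, in place of 18, so calls were more frequent in general with these settings. Tmem123 was at 172 ± 48.4 CPM in male (n = 4) and 355 ± 185.5 CPM in female mice (SD, n = 2), a log2 difference of 1.03 (SE 0.31, adjusted p = 0.225 by edgeR). Leaving out a female mouse sets 1 library against those of 4 male mice, whose spread alone is then used. Without mouse 6, 6 of the 9 genes passed, as did 727 of all genes in place of 18. Without mouse 5, 0 of the 9 and 64 of all genes passed, and the log2 difference of Tmem123 was 0.37.

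The difference between sorts was also compared between the sexes. Tmem123 differed by -0.26 on the log2 scale between sorts in male and by -1.53 in female mice, an interaction of -1.27 (SE 0.19, adjusted p = 0.562 by edgeR). DESeq2 gave an adjusted p of 7.53e-06 for it and edgeR without the filter 1.29e-05, while its other settings gave 0.0667 to 1. No gene of the 9, and 0% of genes tested, passed by edgeR with the filter. Over all genes, DESeq2 called 28 and edgeR without the filter 119. An unadjusted p under 0.05 was found for 6 of the 9 and for 7.73% of genes tested. Both female mice lay below all male mice for Tmem123, at -1.50 and -1.56 against -0.63 to -0.06. The same held for Flt3, Napsa, Dcstamp and Klrd1, and did not hold for Jaml, Mcemp1, Plet1 and Ddr1. How many of all genes separate the sexes in this way was not counted, so nothing is read from it.

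The genes whose levels most resembled the mean of the 9 were sought among 8757 genes by Pearson correlation over the 12 libraries after each sort's mean was subtracted. They were Eps15 (r = 0.978), an endocytic adaptor, Vopp1 (0.957), Clec10a (0.934), Osbpl8 (0.929), a lipid transfer protein, Malt1 (0.926), a protease of NF-kB signalling, and Hnrnpll (0.915), an RNA-binding protein. The libraries share depth and scaling, and mouse 5 takes part in each value: without it, r was 0.970 for Eps15 and 0.797 to 0.876 for the other 5. Eps15 kept rank 1 without mouse 5, whereas Osbpl8, Vopp1, Hnrnpll, Malt1 and Clec10a went to ranks 26, 31, 94, 108 and 153, so that the order of the other 5 depends on that mouse. Between sorts the 6 genes did not move alike. Clec10a, Malt1 and Vopp1 fell, with log2 differences of -3.50, -1.43 and -1.29 (adjusted p = 3.77e-08, 9.41e-05 and 0.00106), while Eps15, Osbpl8 and Hnrnpll had log2 differences of 0.12, 0.03 and -0.05 that did not pass (adjusted p = 0.442, 0.862 and 0.751).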

How the data were processed

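RNA of 12 sorted samples, a rhodamine-negative and a rhodamine-positive sort from each of 6 separate mice, was analysed from the raw read counts per gene that the authors deposited. The submitters' processing notes name bcl2fastq 2.17, cutadapt, HISAT2 2.1.0, featureCounts 1.4.4, edgeR, limma and mm10, and the strand setting is not given in the sources used here. The authors' deposited log2 normalized values, for 10605 genes, were used only where named. The counts were filtered (minimum count 10, total 15), which left 15014 of 54532 genes with 99.8% of counts, and scaled by TMM. They were fitted with edgeR 4.0.16 (R 4.3.3) by quasi-likelihood with the mouse as a block and Benjamini-Hochberg adjustment at 0.05. A prior count of 2 was used only for the log2 CPM of single libraries. SE is the size of the log2 difference over the square root of F. DESeq2 1.42.0 and limma 3.58.1 (voom) were alternatives, as were library size alone, other filters, no block, male mice alone and leaving out each mouse. Libraries held 13073189 to 17379314 counts, and the number of mice limits the precision.

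The mouse numbers pair the sorts, as both came from the same tumour. The deviations of the 2 sorts of a mouse from their group means correlated at 0.0775 to 0.450. For mouse 4 this value, 0.0775, was below its highest correlation with another mouse, 0.187. It was above that for the other mice, by little for mouse 2 (0.207 against 0.187). On simulated counts for 14860 genes with this design, the fit called 94% of 100 genes given a log2 change of 1 and 11% of 100 given 0.5, with 5 false calls. The simulated spread was the same for all genes, and genes of low counts were not among those changed. These shares therefore do not stand for genes that vary more or have fewer counts. The 9 genes, the 20 gene lists and the tests were chosen with earlier results of these data known. Named are the 9 genes, up to 3 genes of smallest p per list, the 6 genes most like the mean of the 9, and those marked as picked after their values were seen. Counts listed for untested marker genes are shown because they define a cell type. The count and sum of the monocyte list are not reported here.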

Additional observations from a re-analysis of the deposited data

Results flagged for a closer look

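In 27 groups of 6 values (each gene's levels in either sort, and its level in carriers as a percentage), Dixon's ratio was used to look for a sample far from the rest, and 5 had such a sample, each time the rhodamine-negative library of mouse 5 at the high end. Chance alone marks about 1 in 20 groups, and 8.51% of all genes had such a rhodamine-negative library, 4.55% with mouse 5 high. The genes were Napsa at 409.5 CPM (next highest 240.5), Jaml at 98.3 CPM (next 50.9), Ddr1 at 71.3 CPM (next 27.0), Klrd1 at 82.8 CPM (next 51.3) and Tmem123 at 486 CPM (next 244.5). As all 5 come from 1 library, they are not separate events.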

How the results depend on the processing

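The log2 differences of the 9 genes kept their sign in all 13 alternatives. They ran from -2.58 to -2.09 for Flt3, -2.85 to -2.50 for Napsa, -3.62 to -3.25 for Dcstamp, -2.84 to -2.54 for Jaml, -2.34 to -2.11 for Mcemp1, -3.43 to -2.82 for Plet1, -3.40 to -2.87 for Ddr1, -3.31 to -2.74 for Klrd1 and -0.84 to -0.27 for Tmem123, whose last value is that of male mice alone. Their median was -2.783 to -2.595 when a mouse was left out and -2.73 with no replicate block. Without the replicate block, 1270 genes rose and 1398 fell, in place of 1955 and 1986, and 5 listed genes rose in place of 15. With library size alone 852 rose and 3142 fell (8 listed genes rose, and 6 gene pairs passed in place of 0), and in male mice alone 1005 and 1222 (9 listed). Leaving out a mouse gave 1257 to 1780 genes that rose and 1421 to 1820 that fell, with 6 to 14 listed genes that rose, the lowest without mouse 3. Between the sexes 18 genes passed, 369 by DESeq2, 882 without the filter, 11 in rhodamine-positive sorts and 8 to 727 with a mouse left out. The interaction had 0 calls, 28 by DESeq2, 119 without the filter and 0 to 4 with a mouse left out. Without mouse 5 the sex difference turned to -0.083 for Napsa, -0.45 for Dcstamp, -0.099 for Mcemp1, -0.23 for Ddr1 and -0.23 for Klrd1, and the interaction of Jaml to 0.26. The other end of the range with a mouse left out was 0.90, 0.96, 0.72, 1.79 and 0.90, and -0.71 for Jaml, all without mouse 6. In rhodamine-positive sorts it was -0.094 for Flt3, -0.15 for Napsa, -0.19 for Dcstamp, -0.30 for Plet1, -0.093 for Ddr1, -0.67 for Klrd1 and -0.19 for Tmem123. The cause of these moves was not tested. Counts as low as 3 limit Plet1 in carriers.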
